A study of Mus musculus with 6 samples.

Results

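The lung response to histamine-releasing factor (HRF) on the arrays labelled FcRg-/- was set against the response on the arrays labelled FceRIa-/-, to see which gene programs responded on 1 pair and not on the other. The contrast uses 4 of the 6 arrays of the series, with 1 array for each group: FcRg-/- mice given PBS, FcRg-/- mice given HRF, FceRIa-/- mice given PBS and FceRIa-/- mice given HRF. All groups carry the strain label C57BL/6, both agents were given through the nose, and total RNA came from whole homogenised lung. The HRF is the mouse protein with a histidine tag (mHRF-His). Dose, time after the challenge, age and the number of mice behind an array are not given in the labels. The remaining arrays, wild type (WT) with PBS and with HRF, serve only as a reference. For each gene the response of a pair is its log2 signal on the HRF array minus that on the PBS array, and the difference of responses is the FcRg-labelled response minus the FceRIa-labelled response. Of 19752 named genes, 15692 had a probe well above background on each of the 4 arrays and were compared, and 4060 were left out. With a single array in every group, no difference has a replicate check and none was tested, so all values below describe these 4 arrays.

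HRF, also called translationally controlled tumour protein and encoded by Tpt1, is an abundant protein of the cell interior that is also released during allergic reactions and can bind some IgE and IgG antibodies. Mast cells and basophils carry the high-affinity IgE receptor FceRI, whose alpha chain (Fcer1a) binds IgE and whose gamma chain (FcRg, gene Fcer1g) carries the signal into the cell. The same gamma chain also serves the activating IgG receptors of macrophages, neutrophils and NK cells, so its loss reaches further than the loss of the alpha chain. The responses described here are those of chemokines and cytokines, of the acute phase proteins that such cytokines induce, of macrophages and epithelium under type 2 cytokines, and of fat, muscle and cartilage genes that are measured in whole lung samples.

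Neither label was borne out by its gene. Levels are given as log2 signal relative to the 75th percentile of the array's signal, PBS first and HRF second. Fcer1g stood at 4.14 and 4.32 on the FcRg-labelled pair and at 4.07 and 4.45 on the FceRIa-labelled pair, so the 4 arrays lay close together. Fcer1a stood at -4.70 and -4.38 on the FcRg-labelled pair and at -0.90 and -1.16 on the FceRIa-labelled pair, with both arrays of the latter far above the former. The WT pair stood at -4.48 and -4.19 for Fcer1a, near the FcRg-labelled arrays, and at 3.93 and 4.61 for Fcer1g. Where these probes lie relative to the deleted stretches is unknown here. A probe outside such a stretch may keep its signal, so these levels do not settle whether a label is right. The arrays are therefore called by their labels throughout, and each direction below is a direction between labelled pairs. Tpt1 itself was at 7.92 and 8.15 against 7.75 and 8.02, responses of 0.23 and 0.27. Of the other receptors, Fcgr2b, the inhibitory IgG receptor, had responses of 0.44 and 0.73, and none of the 10 compared genes of the Fc receptor list had a difference of responses as large as 2-fold.

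A further feature set the pairs apart without HRF. The median of 16 B cell markers was lower by -2.95 on the FcRg-labelled than on the FceRIa-labelled PBS array and by -3.22 between the HRF arrays. Against WT it was the FcRg-labelled pair that departed. The median level differences from WT were -2.91 (PBS) and -3.13 (HRF) for it, and 0.04 and 0.10 for the FceRIa-labelled pair. Cd79b, a signalling chain of the B cell receptor, stood at 0.76 and 0.74 on the FcRg-labelled pair and at 3.91 and 4.27 on the FceRIa-labelled pair. Ms4a1 and Pax5 were not well above background on the FcRg-labelled arrays. In whole lung, fewer cells of a type and less RNA per cell cannot be told apart. The B cell difference was present on both arrays of a pair, so the median response of these markers was small on either (0.14 and 0.23). On the PBS arrays alone, 138 genes (0.879% of those compared) had a level 2-fold or more above that of the FceRIa-labelled array on the FcRg-labelled array, and 129 (0.822%) a level 2-fold or more below it. Arrays were otherwise alike in quality: between 67.5% and 79.6% of 59305 spots were well above background on the 6 arrays, none was saturated, and the 75th percentile of the signal lay between 1197 and 1622, lower on both labelled HRF arrays than on their PBS arrays.

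The difference of responses was at least 2-fold positive in 201 genes (1.28%) and at least 2-fold negative in 326 (2.08%). On the FcRg-labelled pair, 80 genes (0.51%) were higher with HRF by at least 2-fold and 156 (0.994%) lower. The FceRIa-labelled pair had the reverse balance, with 177 genes (1.13%) higher and 31 (0.198%) lower. Of the 15692 genes compared, 6 were past 2-fold higher on both pairs, beside the 80 and 177 higher on each. Past 2-fold lower on both were 2, beside the 156 and 31 lower on each. How many would be shared without a link between the pairs was not tested. Opposite directions past 2-fold were found in 34 of the 15692, of which 33 were higher on the FceRIa-labelled and lower on the FcRg-labelled pair. Asking for a response of at least 2-fold on 1 pair and under 0.5 in size on the other gave 58 genes (0.37%) higher and 93 (0.593%) lower on the FcRg-labelled pair alone. The same rule gave 91 genes (0.58%) higher and 22 (0.14%) lower on the FceRIa-labelled pair alone. Normexp background correction with quantile normalization gave 68 positive and 201 negative differences in place of 201 and 326, a share of positive calls of 25.3% against 38.1%.

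Across the 15692 genes, the responses of the 2 pairs had a Pearson correlation of 0.05 and a Spearman correlation of 0.20, and 0.09 (Pearson) over 13030 genes of higher signal. Over those brighter genes the FceRIa-labelled response had a correlation of 0.52 with the WT response and the FcRg-labelled response 0.19. All points come from arrays of a single slide, and genes are not independent replicates. The spread of the difference over genes was 0.21 (robust SD) around a median of 0.01. For 4870 additional probes of compared genes, the difference deviated from that of the main probe by a median of 0.13 and by 0.64 at the 95th percentile, and spots of the same probe on an array had a median SD of 0.07. The spreads between probes and between spots are technical and do not include variation between mice. With 1 array in each group, the spread over genes cannot be divided into technical and other variation. Just inside the 2-fold bound lay Rad54b (1.0008) and Ccr10 (-1.0025), and just outside it Cd300e (0.9993) and Cadm3 (-0.9952), which differ from the bound by less than the probe spread.

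**Figure D1:**
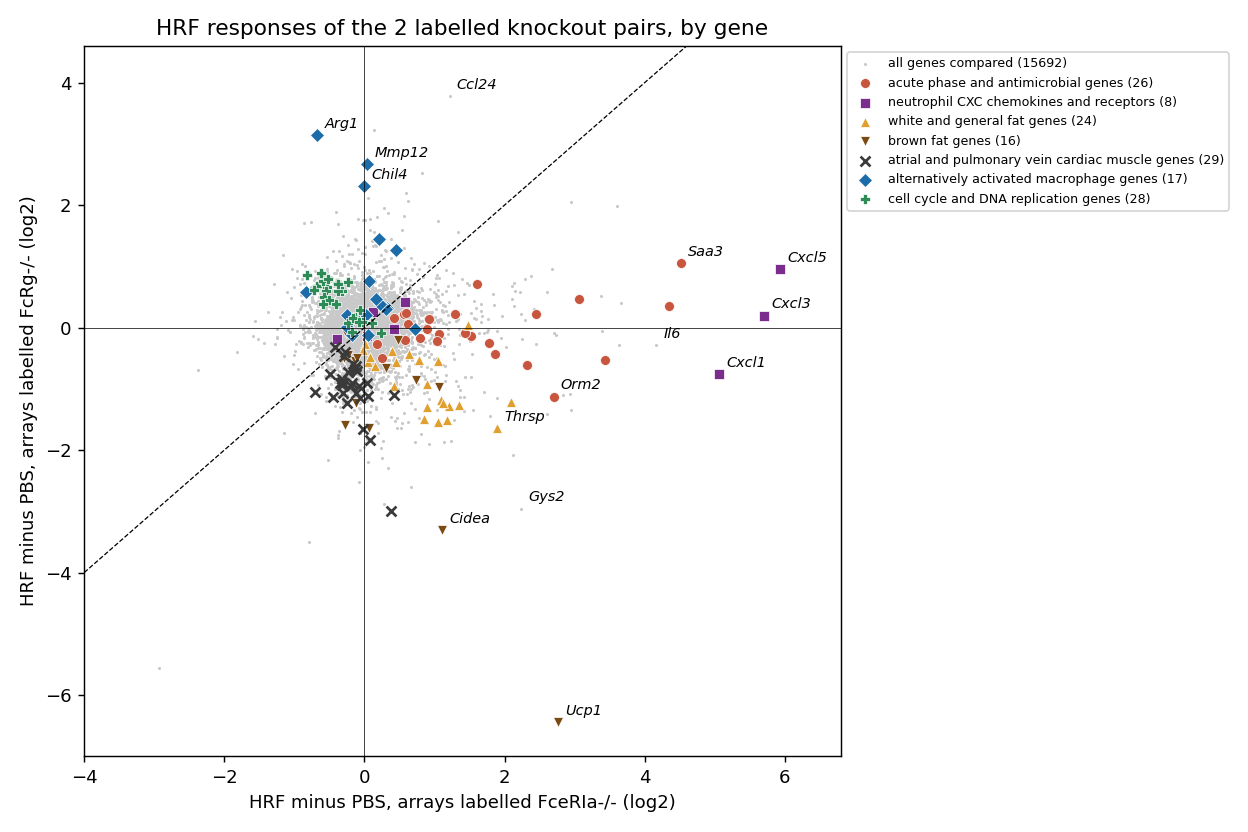
Each point is 1 of 15692 genes, with its HRF minus PBS log2 ratio on the arrays labelled FceRIa-/- on the x axis and on the arrays labelled FcRg-/- on the y axis, 7 gene lists coloured and equality dashed. Chemokines and acute phase genes extend to the right near 0 on the y axis (Cxcl5 at 5.93 and 0.95), fat genes fall in the lower right quadrant (Ucp1 at 2.77 and -6.44), and Arg1 lies at the upper left (-0.67 and 3.14).

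Of 60 gene lists, 11 met the rule for a response in 1 direction on 1 pair alone. The rule asked for at least 20% and at least 3 of the compared members past 2-fold in that direction. On the other pair at most 5% could be past 2-fold in the same direction. The lists higher on the FceRIa-labelled pair alone were neutrophil CXC chemokines, monocyte chemokines, the IL-1 family, NF-kB feedback genes, acute phase genes, white fat genes and liver genes. The IL-1 family met the rule with 3 of 13 genes, while its median difference of 0.13 lay in the other direction. On the FcRg-labelled pair alone, alternatively activated macrophage genes and eosinophil markers were higher, and white fat, brown fat, liver and cardiac muscle genes were lower. White fat and liver genes thus responded on both pairs, in opposite directions. Lower on the FcRg-labelled pair were 10 of 24 and 3 of 8, and higher on the FceRIa-labelled pair 10 and 3. Over all genes compared, the median responses were 0.00 and -0.01, and 50.04% and 47.26% of genes were above 0 on the FcRg-labelled and FceRIa-labelled pair.

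**Figure D2:**
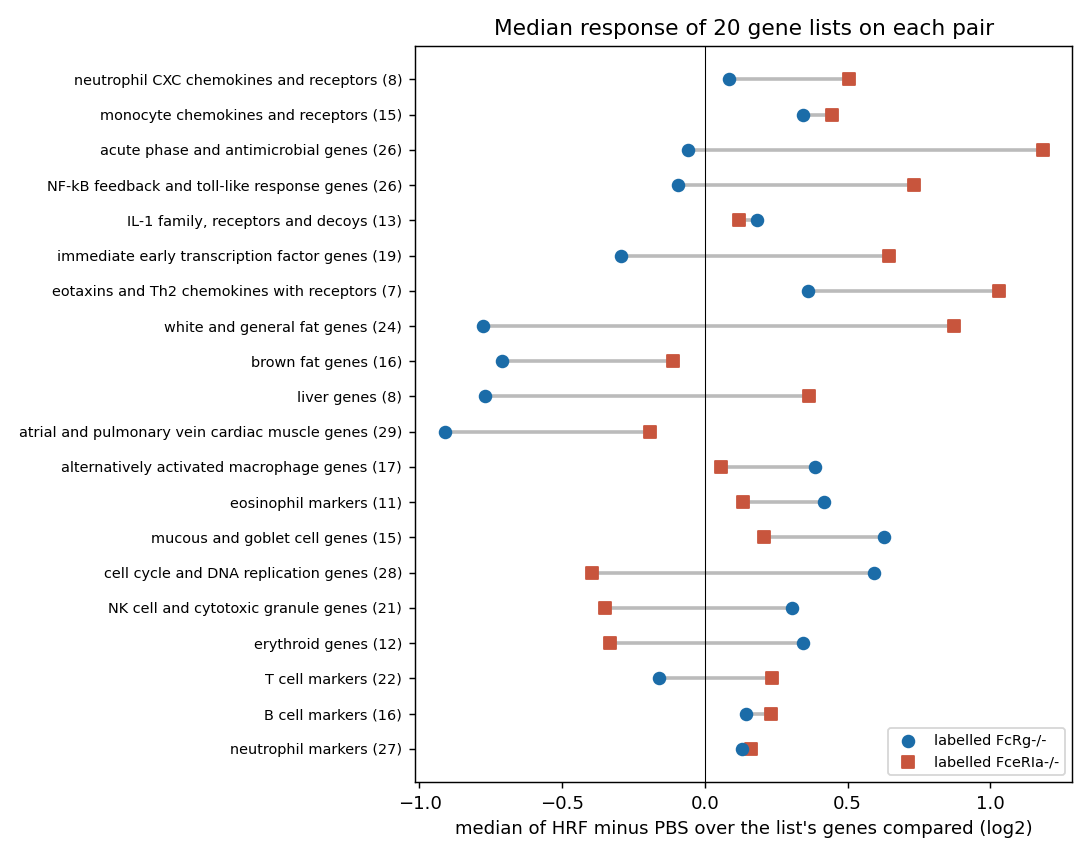
The x axis gives the median HRF minus PBS log2 ratio over the compared genes of 20 lists (number of genes in brackets), with circles for the arrays labelled FcRg-/- and squares for those labelled FceRIa-/-. Of the 20 lists drawn, white fat genes have the widest gap (-0.78 and 0.87), acute phase genes lie at -0.06 and 1.18, and cell cycle genes have the reverse order (0.59 and -0.40).

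Of the neutrophil CXC chemokine list, Cxcl1, Cxcl3 and Cxcl5, which attract neutrophils through the receptor Cxcr2, were past 2-fold on the FceRIa-labelled pair alone. Cxcl1, Cxcl2 and Cxcl3 lie in a cluster on chromosome 5, and 3 of the 8 promoter windows found for this list held the NF-kB motif GGGANNTTCC, where N is any base. Of all 32851 RefSeq windows of the 250 bases before a gene start, 1.21% held it on either strand. Of 10 windows of the monocyte chemokine list, which also met the rule for the FceRIa-labelled pair, 0 held it. The 150 bases before the start of Cxcl1, Cxcl2, Cxcl3 and Il6 are shown. These genes were higher with HRF on the FceRIa-labelled pair and were picked because their windows held the motif. The coordinates are those of RefSeq on GRCm38.p6, all 4 on the plus strand, at chr5:90891095-90891244 (Cxcl1), chr5:90903749-90903898 (Cxcl2), chr5:90785951-90786100 (Cxcl3) and chr5:30012964-30013113 (Il6). Capitals mark the motif; in the CXC genes 2 overlapping matches on opposite strands make up 1 palindromic stretch, which begins 71, 97 and 73 bases before the start, and in Il6 the match begins 44 bases before it.
Cxcl1: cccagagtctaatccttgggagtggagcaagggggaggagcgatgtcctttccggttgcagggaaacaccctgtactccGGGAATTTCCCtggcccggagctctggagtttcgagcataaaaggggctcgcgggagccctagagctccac
Cxcl2: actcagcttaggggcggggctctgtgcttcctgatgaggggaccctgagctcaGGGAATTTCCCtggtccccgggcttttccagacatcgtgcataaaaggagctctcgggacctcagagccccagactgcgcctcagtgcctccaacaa
Cxcl3: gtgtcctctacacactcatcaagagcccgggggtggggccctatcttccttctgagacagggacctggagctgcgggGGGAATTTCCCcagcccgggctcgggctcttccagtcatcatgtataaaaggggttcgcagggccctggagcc
Il6: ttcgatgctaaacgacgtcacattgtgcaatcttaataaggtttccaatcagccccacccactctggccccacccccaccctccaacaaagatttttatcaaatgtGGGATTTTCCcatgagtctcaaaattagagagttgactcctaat
A match describes these letters and is not a measured binding site.

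Cxcl5, the epithelial neutrophil attractant, was at -3.20 and -2.25 on the FcRg-labelled pair and at -4.43 and 1.5 on the FceRIa-labelled pair. The FceRIa-labelled HRF array stood far above the other 3 arrays, a 61.2-fold higher level than on its PBS array against 1.94-fold on the other pair. Cxcl3 was at -3.97 and -3.77 against -3.78 and 1.92, again with 3 low arrays and 1 high array (1.15-fold and 52.0-fold). Cxcl1 was at -2.64 and -3.40 against -4.0 and 1.06, which was 1.69-fold lower with HRF on the FcRg-labelled pair and 33.5-fold higher on the FceRIa-labelled pair. The differences of responses were -4.98 for Cxcl5, -5.50 for Cxcl3 and -5.82 for Cxcl1, and the WT pair had responses of 6.76, 3.13 and 4.0. Cxcl2 was not well above background on 3 arrays and was at least 32.2-fold higher with HRF on the FceRIa-labelled pair. Of the 8 compared genes of the list, 3 were at least 2-fold higher on the FceRIa-labelled pair and 0 on the FcRg-labelled pair. The remaining members did not follow: the receptors Cxcr1 and Cxcr2 had responses of -0.13 and -0.18 against 0.04 and -0.39, and the platelet chemokines Pf4 and Ppbp -0.03 and 0.41 against 0.43 and 0.59. The median responses of the list were 0.08 and 0.51.

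Most neutrophil markers had small responses beside these chemokines. The median responses of 27 neutrophil markers were 0.13 and 0.16, with a median difference of -0.01. Past 2-fold were 4 on the FcRg-labelled pair (Mpo, Ctsg, Camp and Ngp, all granule genes) and 1, Clec4e, on the FceRIa-labelled pair. S100a8 and S100a9, the calgranulins that fill neutrophil cytoplasm, had responses of 0.26 and 0.33 on the FcRg-labelled pair and 0.29 and 0.40 on the FceRIa-labelled pair. On the WT pair the median of the list was 0.77.

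Monocyte attractants followed the CXC chemokines. Ccl2, the main ligand of the monocyte receptor Ccr2, was at -0.40 and -0.46 on the FcRg-labelled pair and at -1.46 and 1.93 on the FceRIa-labelled pair. Ccl7, which shares that receptor, was at -1.28 and -0.87 against -2.01 and 1.65. For both genes the FceRIa-labelled PBS array was the lowest of the 4 and its HRF array the highest, responses of 3.39 and 3.66 against -0.06 and 0.41. Ccl3, Ccl12 and Ccl9 were also past 2-fold on the FceRIa-labelled pair (2.22, 2.15 and 2.13) and not on the other (0.58, 0.60 and 0.72). The decoy receptor Ackr1, carried by venules, had responses of 1.09 and 0.13 on those pairs. In all, 6 of 15 genes of the list were at least 2-fold higher on the FceRIa-labelled pair and 0 on the other, with median responses of 0.45 and 0.34. Ccl5 and Ccl8 ran the other way below 2-fold, with differences of 0.42 and 0.46, and the receptors Ccr1, Ccr2 and Cx3cr1 had differences between -0.30 and 0.25. The list's median difference of -0.30 was -0.09 over its bright genes and -0.15 with normexp.

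The interferon-inducible T cell attractants were split from the other interferon gamma genes. Cxcl10 was at 0.39 and 0.10 on the FcRg-labelled pair and at -1.19 and 2.44 on the FceRIa-labelled pair. Cxcl9 was at -1.24 and -2.32 against -4.08 and -1.15, so that here the 2 HRF arrays lay nearer to each other than the PBS arrays. Responses were 3.63 for Cxcl10 and 2.94 for Cxcl9 on the FceRIa-labelled pair, against -0.28 and -1.08. The other 17 compared genes of that list did not reach a 2-fold difference: the GTPases Gbp2, Igtp and Gbp5 had differences of -0.62, -0.68 and -0.60, and Ifng itself 0.24.

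Among cytokines, Il6 was at -2.78 and -3.06 on the FcRg-labelled pair and at -4.79 and -0.63 on the FceRIa-labelled pair. It was 17.9-fold higher on the FceRIa-labelled pair and 1.22-fold lower on the other, and the FceRIa-labelled PBS array was the lowest of the 4. Tnf, an early macrophage cytokine, was at -3.91 and -4.09 against -3.75 and -1.50, and Csf2, a growth factor of granulocytes and macrophages, at -0.84 and -0.87 against -0.84 and 0.93. For these 2 genes 3 arrays lay together and the FceRIa-labelled HRF array stood above them (responses of 2.25 and 1.77). Of the IL-1 family, Il1a, Il1b and the receptor antagonist Il1rn were at least 2-fold higher on the FceRIa-labelled pair (1.35, 1.10 and 1.01) and had -0.02, -0.14 and 0.72 on the other. Their differences were -1.37, -1.24 and -0.29. The receptors and the other ligands of that list had differences between -0.58 and 0.46, and the median difference over its 13 genes was 0.13, or -0.02 with normexp. Il17a was at least 3.20-fold and Csf3 at least 1.36-fold higher with HRF on the FceRIa-labelled pair, and neither was well above background on the FcRg-labelled arrays. Lif, a cytokine of the IL-6 family, had the opposite order, with -0.02 on the FcRg-labelled and -1.25 on the FceRIa-labelled pair.

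Acute phase and antimicrobial genes, which inflammatory cytokines induce, responded in the same way. Of 26 compared, 15 were at least 2-fold higher on the FceRIa-labelled pair and 1 on the FcRg-labelled pair, and the difference of responses was below 0 in 25. Median responses were 1.18 and -0.06. Saa3, a serum amyloid made by macrophages and epithelium, was at 0.55 and 1.60 on the FcRg-labelled pair and at -0.69 and 3.82 on the FceRIa-labelled pair. It was the member past 2-fold on both pairs, with a difference of responses of -3.46. Saa2 was at -4.19 and -3.83 against -5.27 and -0.92, and Saa1 at -0.36 and 0.10 against -1.21 and 1.86. The fibrinogen chain Fgg was at -0.46 and -0.99 against -1.67 and 1.77, and Lcn2, an iron-withholding antimicrobial protein, at 4.86 and 5.08 against 4.70 and 7.16. In each of these genes the FceRIa-labelled HRF array was the highest and the FceRIa-labelled PBS array the lowest. Orm2, an acid glycoprotein, was past 2-fold in opposite directions (-1.13 and 2.70), as was its neighbour Orm3 (-1.05 and 1.71), which is not on the list. Reg3g was the exception, with a difference of 0.11. Saa4, Fgb and Apcs were not compared.

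The palindrome of C/EBP factors, which act downstream of IL-6 and IL-1, was searched as TTGCNNAA on both strands. It was present in 17 of 28 promoter windows of this list (60.7%) and in 9.56% of all windows. The NF-kB motif was in 0 of these 28 windows, and in 3 of 26 windows of the NF-kB feedback list (those of Nfkb2 and Nfkbia). The 150 bases before the start are shown for Saa3 (chr7:46715677-46715826, minus strand) and Orm2 (chr4:63362299-63362448, plus strand), a member that responded on both pairs and a member that responded in opposite directions. Capitals mark the match, which begins 99 and 120 bases before the start; in Saa3 it lies on the opposite strand.
Saa3: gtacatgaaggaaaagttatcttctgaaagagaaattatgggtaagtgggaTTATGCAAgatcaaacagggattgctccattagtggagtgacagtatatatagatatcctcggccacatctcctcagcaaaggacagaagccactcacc
Orm2: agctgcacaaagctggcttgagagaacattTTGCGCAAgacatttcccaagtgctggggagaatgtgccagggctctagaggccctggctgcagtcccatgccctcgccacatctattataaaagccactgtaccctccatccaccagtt
The 2 windows share the motif although the genes differed in their FcRg-labelled response.

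**Figure D3:**
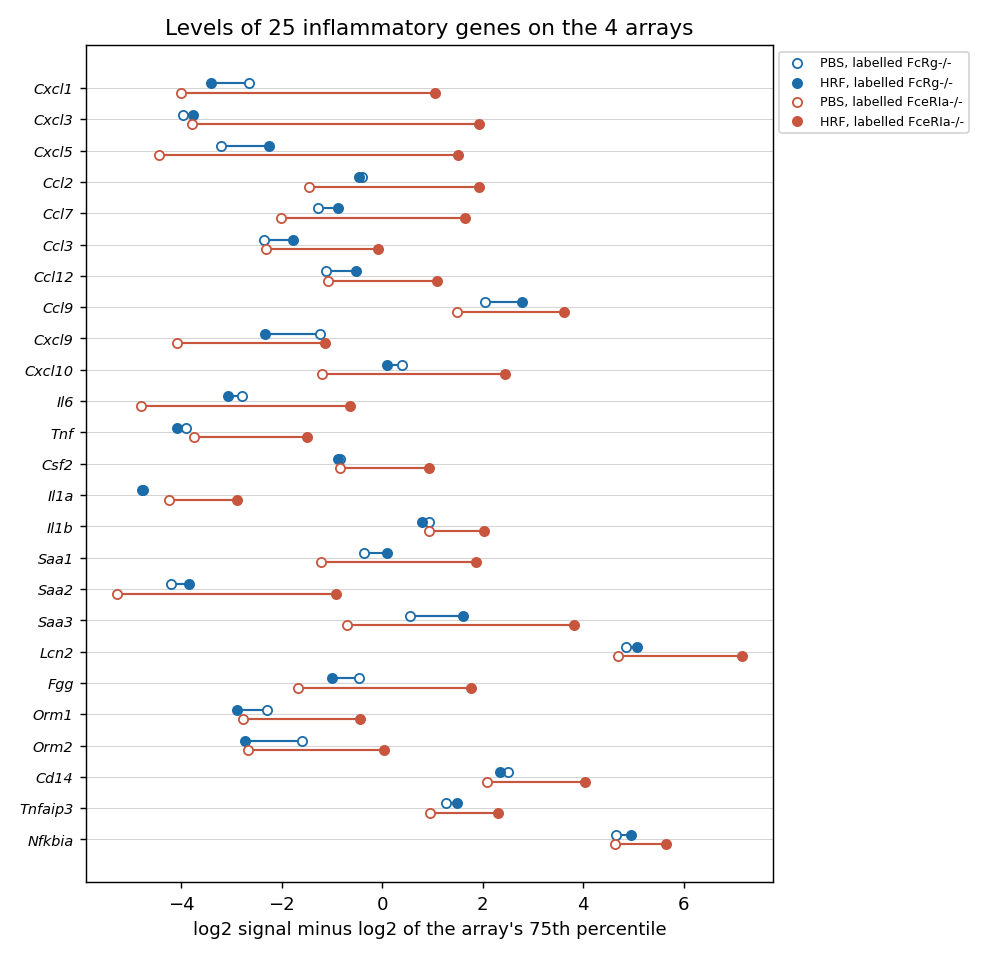
The x axis gives the level of 25 chemokine, cytokine, acute phase and NF-kB genes as log2 signal relative to the array's 75th percentile, with open circles for PBS, filled circles for HRF, blue for the arrays labelled FcRg-/- and red for those labelled FceRIa-/-. Red lines run far to the right (Cxcl5 from -4.43 to 1.5) while blue lines stay short (-3.20 to -2.25).

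NF-kB is held in check by genes that it induces itself, and 26 such feedback and toll-like response genes were compared. All 26 had a difference of responses below 0, where 51.4% of all genes compared lay above 0. Of them 8 were at least 2-fold higher on the FceRIa-labelled pair and 0 on the other, with medians of 0.73 and -0.09. Cd14, the lipopolysaccharide coreceptor, was at 2.51 and 2.34 on the FcRg-labelled pair and at 2.09 and 4.04 on the FceRIa-labelled pair. Tnfaip3, a deubiquitinase that ends NF-kB signalling, was at 1.27 and 1.49 against 0.95 and 2.32, and the inhibitor Nfkbia at 4.65 and 4.96 against 4.63 and 5.64. The FceRIa-labelled HRF array was the highest for all 3, and the other 3 arrays lay together. Clec4e, Tnfaip6, Zc3h12a and Nfkbie were also past 2-fold (1.85, 1.68, 1.59 and 1.19 against 0.37, 0.18, 0.13 and -0.02). The subunits Nfkb1 and Relb had responses of 0.14 and 0.90 against 0.00 and 0.09. The interleukin-6 feedback gene Socs3 had responses of -0.47 on the FcRg-labelled and 0.63 on the FceRIa-labelled pair.

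Immediate early genes, which are transcribed soon after a stimulus without new protein synthesis, differed in the same direction but from a different baseline. The median difference over 19 genes was -1.05, with 10 genes at or below -1, and all 19 responses were above 0 on the FceRIa-labelled pair against 6 on the FcRg-labelled pair. Egr1 was at 3.25 and 1.77 on the FcRg-labelled pair and at 1.39 and 2.17 on the FceRIa-labelled pair, and Fos at 2.17 and 0.69 against 0.19 and 0.65. In both the FcRg-labelled PBS array was the high one, and the 2 HRF arrays were close. Past 2-fold were 2 genes on each pair, Egr1 and Fos lower on the FcRg-labelled (both -1.48) and Atf3 and Klf2 higher on the FceRIa-labelled (both 1.01), so the list did not meet the rule for 1 pair.

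The chemokines of type 2 inflammation were divided between the pairs. Ccl24, an eotaxin that attracts eosinophils through Ccr3, was at -1.81 and 1.96 on the FcRg-labelled pair and at -2.52 and -1.30 on the FceRIa-labelled pair. The FcRg-labelled HRF array was the high one, 13.7-fold above its PBS array, against 2.32-fold on the other pair. Ccl17 and Ccl22, dendritic cell products that attract Th2 cells through Ccr4, ran the other way, with responses of 0.85 and -0.08 on the FcRg-labelled pair and 2.38 and 1.70 on the FceRIa-labelled pair. Ccl11, the other eotaxin compared, had similar responses (0.87 and 1.03). The receptors Ccr3, Ccr4 and Ccr8 had differences between -0.45 and 0.22.

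Genes of alternatively activated macrophages, the state induced by IL-4 and IL-13, responded on the FcRg-labelled pair alone. Of 17 compared, 5 were at least 2-fold higher there and 0 on the other pair, with medians of 0.39 and 0.06. Arg1, the arginase of this state, was at -1.93 and 1.2 on the FcRg-labelled pair and at -2.33 and -3.01 on the FceRIa-labelled pair, responses of 3.14 and -0.67. Mmp12, the macrophage elastase, was at -4.89 and -2.21 against -4.68 and -4.64, and the chitinase-like Chil4 at 0.97 and 3.28 against 0.42 and 0.42. For each of them 3 arrays lay together or below and the FcRg-labelled HRF array stood above. The secreted Retnla was at 6.51 and 7.77 against 5.76 and 6.21, and the checkpoint ligand Pdcd1lg2 at -3.49 and -2.04 against -3.32 and -3.11. Members that did not differ included the lectins Mgl2 and Clec10a (differences of -0.01 and 0.00) and Mrc1 (0.26). Egr2 ran the other way at -0.74. The WT pair had responses of 2.20 for Arg1, 0.85 for Mmp12 and 1.33 for Chil4. With normexp the difference of Mmp12 was 1.61 in place of 2.64.

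The STAT6 motif, the site through which IL-4 and IL-13 act, was searched as TTCNNNNGAA on both strands. It was present in 5 of 17 promoter windows of this list (4 genes: Clec7a, Itgax, Pdcd1lg2 and Retnla) and in 5.85% of all windows. The 150 bases before the start are shown for the 2 of these genes that were past 2-fold on the FcRg-labelled pair, Retnla (chr16:48842459-48842608, plus strand) and Pdcd1lg2 (chr19:29410769-29410918, plus strand). Capitals mark the match, which begins 145 and 82 bases before the start.
Retnla: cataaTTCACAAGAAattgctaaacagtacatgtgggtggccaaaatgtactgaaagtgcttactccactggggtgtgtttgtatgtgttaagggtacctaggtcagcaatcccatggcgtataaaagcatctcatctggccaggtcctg
Pdcd1lg2: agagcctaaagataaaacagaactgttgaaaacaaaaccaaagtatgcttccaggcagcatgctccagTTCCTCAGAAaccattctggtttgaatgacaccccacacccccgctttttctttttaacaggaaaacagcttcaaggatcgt
The larger responses of Mmp12 and Chil4 came without these letters in their windows, which says only that the motif is not in that stretch.

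The type 2 cytokines themselves had small or poorly measured responses. Il13 was at least 4.88-fold higher with HRF on the FcRg-labelled pair and at least 1.23-fold higher on the FceRIa-labelled pair, with neither PBS array well above background. Il9 was at least 2.95-fold lower with HRF on the FceRIa-labelled pair and not well above background on the FcRg-labelled arrays. Il4 had responses of 0.92 and 0.32 and Il5 of 0.26 and 0.90, and the receptor chains Il4ra and Il13ra1 differed by -0.08 and 0.05. None of the 12 genes compared was past 2-fold on either pair. The median difference was 0.04.

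Mucous genes of the airway epithelium, which IL-13 induces, leaned towards the FcRg-labelled pair. Of 15 compared, 5 were at least 2-fold higher on that pair and 2 on the other, so the list did not meet the rule for 1 pair. Clca1, a secreted goblet cell product, was at 4.88 and 6.78 on the FcRg-labelled pair and at 4.14 and 3.73 on the FceRIa-labelled pair. The gel-forming mucin Muc5ac was at -2.11 and -0.62 against -2.27 and -2.57, and the mucus protein Fcgbp at 0.37 and 1.57 against -0.18 and -0.40. In all 3 the FcRg-labelled HRF array was the highest and the FceRIa-labelled HRF array the lowest. Tff1 had a response of 3.38 on the FcRg-labelled pair, where Retnlb was at least 5.98-fold and Gcnt3 at least 3.97-fold higher, and none of these 3 was well above background on the FceRIa-labelled arrays. Of the 15 differences 8 were above 0 and 7 below. The anion exchanger Slc26a4, at 1.45 and 3.44 against -0.52 and 3.08, was the member past 2-fold in the other direction (-1.61), and the mucins Muc1 and Muc4 had -0.37 and -0.28. The goblet cell regulators Spdef and Foxa3 did not differ (-0.02 and 0.00), and Muc5b had a difference of 0.37. The median difference of the list, 0.37, was 0.17 with normexp and 0.63 when genes well above background on at least 1 array were added.

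Eosinophil granule genes were also past 2-fold on the FcRg-labelled pair alone, but from a low PBS array. Prg2, the major basic protein, was at -1.20 and 0.36 on the FcRg-labelled pair and at 0.68 and 0.81 on the FceRIa-labelled pair. Epx, the eosinophil peroxidase, was at -5.43 and -4.02 against -3.23 and -3.12, and Prg3 at -5.67 and -4.08 against -3.91 and -3.83. In all 3 the FcRg-labelled PBS array was the lowest of the 4 and its HRF array still lay below both FceRIa-labelled arrays. Of 11 markers, these 3 were past 2-fold on the FcRg-labelled pair and 0 on the other, and 10 differences were above 0. The list thus met the rule for 1 pair with the least number of members, 3. Epx and Prg3 were dim on the FcRg-labelled PBS array, where the lowest signal well above background was -6.52. The surface receptors Ccr3, Il5ra and Siglecf had responses of 0.36, 0.65 and 0.15 on the FcRg-labelled pair and 0.53, 0.27 and -0.62 on the other. The ribonucleases Ear1 and Ear2 and the lectin Siglecf are also alveolar macrophage genes, and were lower on the FceRIa-labelled pair (-0.79, -0.75 and -0.62). The median level difference between the PBS arrays was -0.27 for the list.

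The same low PBS array was seen for some granule genes of other myeloid cells. Mcpt8, a basophil protease, was at -6.15 and -4.03 on the FcRg-labelled pair and at -3.70 and -3.64 on the FceRIa-labelled pair. Among neutrophil markers, the primary granule genes Mpo and Ctsg were at -1.96 and -0.21 against 0.56 and 0.53 and at -2.83 and -1.07 against -0.57 and -0.48. The secondary granule gene Camp was at 1.57 and 2.90 against 3.44 and 3.60. As in the eosinophil genes, the FcRg-labelled HRF array lay between its PBS array and the FceRIa-labelled arrays. Elane and Prtn3, which are stored in the same primary granules, had differences of -0.01 and 0.26. Ltf, a secondary granule gene like Camp, went the other way, at 3.28 and 2.79 against 3.39 and 3.64. With normexp the difference for Mcpt8 was 0.63 in place of 2.06. Mast cell proteases went both ways. Mcpt4 had responses of -1.23 on the FcRg-labelled and 0.40 on the FceRIa-labelled pair and Cpa3 -0.59 and 0.18, while Tpsb2 had a difference of 0.13 and Mcpt2 was at least 2.22-fold higher on the FcRg-labelled pair. Mcpt1, a mast cell protease of mucosal surfaces, was at least 13.5-fold lower with HRF on the FceRIa-labelled pair and not well above background on the FcRg-labelled arrays.

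Cell division genes differed through small opposite shifts. Of 28 compared, 26 had a response above 0 on the FcRg-labelled pair and 2 on the FceRIa-labelled pair, with medians of 0.59 and -0.40, and 13 had a difference of at least 1. None of the 28 was past 2-fold on either pair, and the median WT response was 0.03. Cenpf, which was not compared, had the opposite order, at least 2.28-fold lower on the FcRg-labelled and at least 3.15-fold higher on the FceRIa-labelled pair. Kif20a, a kinesin of cytokinesis, was at -1.22 and -0.36 against -0.93 and -1.76, Cdk1, the mitotic kinase, at -2.34 and -1.47 against -2.06 and -2.67, and Mki67, the usual marker of cycling cells, at 0.82 and 1.48 against 1.39 and 0.73. In each the FcRg-labelled HRF array was the highest and the FceRIa-labelled HRF array the lowest. The replication genes Mcm2 to Mcm7 had differences between 0.10 and 0.35 and Pcna of -0.03. The CHR element of mitotic promoters (TTTGAA, both strands) was in 8 of 28 windows (28.6%) against 15.99% of all windows.

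NK cell and red cell genes had a like pattern. Of 21 NK and cytotoxic genes, 18 had a response above 0 on the FcRg-labelled pair and 3 on the FceRIa-labelled pair, with a median difference of 0.72 and 4 genes at or above 1. Klra8, an NK receptor, was at 0.09 and 0.56 against 0.53 and -0.21, and Gzma, a cytotoxic granule protease, at 3.98 and 4.44 against 3.92 and 3.39. For both the FceRIa-labelled HRF array was the lowest. Of 12 erythroid genes, Rhag and Slc4a1, membrane proteins of red cell precursors, had differences of 1.63 and 1.21, while Hba-a1 and Alas2 had -0.05 each. The erythroid median of 0.66 was 0.03 over bright genes and 0.27 with normexp. T cell markers ran the other way, with a difference below 0 in 21 of 22 and a median of -0.36, none past 2-fold on either pair.

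**Figure D4:**
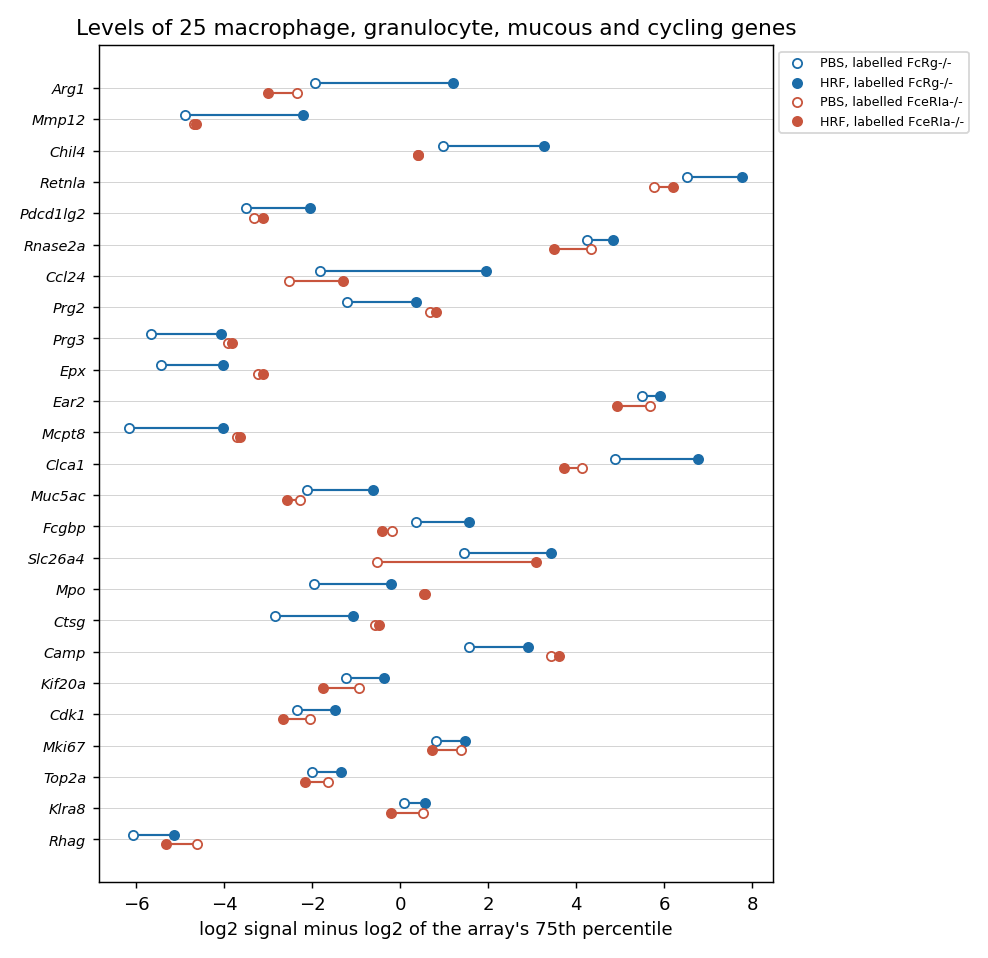
The x axis gives the level of 25 macrophage, granulocyte, mucous, cycling, NK and red cell genes as log2 signal relative to the array's 75th percentile, with open circles for PBS, filled circles for HRF, blue for the arrays labelled FcRg-/- and red for those labelled FceRIa-/-. Arg1 moves far to the right in blue alone (-1.93 to 1.2), whereas for Prg2, Epx, Mcpt8, Mpo and Ctsg the filled blue point stays below both red points.

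Brown fat genes were lower with HRF on the FcRg-labelled pair, where all 16 responses were below 0, against 9 of 16 on the FceRIa-labelled pair. Ucp1, the uncoupling protein of brown fat, was at 3.83 and -2.61 on the FcRg-labelled pair and at -1.94 and 0.82 on the FceRIa-labelled pair. It was 86.8-fold lower with HRF on the former and 6.8-fold higher on the latter, and its difference of -9.20 was the largest of all genes compared. Cidea, a lipid droplet protein of brown fat, was at 3.80 and 0.49 against 0.57 and 1.68. For both the FcRg-labelled PBS array stood far above the other 3. Cox8b and Cox7a1, respiratory subunits of brown fat and muscle, were lower on the FcRg-labelled pair (-1.64 and -1.24) and had 0.06 and -0.12 on the other. Elovl3 was at least 12.1-fold lower on the FcRg-labelled pair and not well above background on the FceRIa-labelled arrays. Of 16 brown fat genes, 5 were at least 2-fold lower on the FcRg-labelled pair and 3 at least 2-fold higher on the FceRIa-labelled pair (Ucp1, Cidea and Ebf2). The regulators Prdm16 and Ppargc1a had differences of 0.18 and -0.20, and Otop1 had 0.12 with its main probe and -3.84 with another. The median responses were -0.71 and -0.11.

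White and general fat genes moved on both pairs. Of 24 compared, 10 were at least 2-fold lower on the FcRg-labelled pair and 10 at least 2-fold higher on the FceRIa-labelled pair, with 17 differences at or below -1. Adipoq, the adipocyte hormone adiponectin, was at 3.23 and 1.97 on the FcRg-labelled pair and at 2.14 and 3.49 on the FceRIa-labelled pair. Retn, or resistin, was at 2.75 and 1.53 against 1.24 and 3.33, and Fabp4, the fatty acid carrier, at 5.52 and 4.25 against 4.27 and 5.47. In all 3 the arrays formed a high level (FcRg-labelled PBS and FceRIa-labelled HRF) and a low level (the other 2), so the order of the pairs turned over between PBS and HRF. Over the list the median level difference was 0.66 between the PBS arrays and -0.92 between the HRF arrays, and the mean levels of the 4 arrays were 1.73, 0.90, 1.04 and 1.83. Thrsp and Elovl6, which serve fatty acid synthesis, had differences of -3.54 and -2.49. The nuclear receptor Pparg and Cidec are also alveolar macrophage genes, with differences of -0.27 and -1.82. The WT pair had a median response of 0.00 for these 24 genes.

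Several acute phase genes are also made by fat. On the FceRIa-labelled pair both lists were higher (medians of 1.18 for acute phase and 0.87 for white fat genes), and the part of the fat genes in the acute phase response was not tested. On the WT pair the acute phase median was 1.24 with the fat median at 0.00.

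Liver-type genes had the same order of arrays. Gys2, the liver glycogen synthase, was at -1.61 and -4.57 on the FcRg-labelled pair and at -5.09 and -2.85 on the FceRIa-labelled pair, and Cyp2e1, a cytochrome also found in fat, at 2.77 and 1.75 against 2.18 and 3.55. Of 8 compared, 3 were at least 2-fold lower on the FcRg-labelled pair and 3 at least 2-fold higher on the FceRIa-labelled pair, with a median difference of -1.69. With normexp Gys2 had a difference of -3.28 in place of -5.20. The list median was -0.99 over bright genes, -1.01 with normexp and -1.04 with genes well above background on at least 1 array. Alb, the defining liver product, was low on all 4 arrays (-4.48, -4.45, -4.05 and -4.35), Apoa2 differed by -0.04, and Apoa1 and Ttr were not well above background on any of the 4.

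The major urinary protein genes, pheromone carriers made in liver and some glands, were added as a list after their values were seen. Mup20 was at -1.91 and -3.25 on the FcRg-labelled pair and at -4.52 and -1.57 on the FceRIa-labelled pair. Of 6 compared, 5 were at least 2-fold lower on the FcRg-labelled pair and 5 at least 2-fold higher on the FceRIa-labelled pair, with differences from -4.29 (Mup20) to -3.04 (Mup2), and Mup21 had 0.24. These genes are nearly identical copies, so a probe for 1 may read several, and with normexp Mup5 had -1.98 in place of -3.94. On the WT pair the median response was -1.18.

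Cardiac muscle genes, which in mouse lung come with the muscle sleeve of the pulmonary veins and the atria, were lower with HRF on both pairs and past 2-fold on the FcRg-labelled pair alone. Of 29 compared, 11 were at least 2-fold lower there and 0 on the other pair. Responses were below 0 in 29 and 24 genes, and differences in 28. Nppa, the atrial natriuretic peptide, was at 5.91 and 4.08 on the FcRg-labelled pair and at 4.73 and 4.81 on the FceRIa-labelled pair. Nppb, the related peptide of strained heart muscle, was at -1.23 and -4.23 against -3.72 and -3.34, and Myh6, the atrial myosin heavy chain, at 6.99 and 6.08 against 6.47 and 6.12. The FcRg-labelled PBS array was the highest in all 3. The mean levels of the list were 2.39, 1.39, 1.70 and 1.52 on the 4 arrays, so the FcRg-labelled PBS array stood apart and the other 3 lay closer together. The median responses were -0.91 and -0.19, and -0.45 on the WT pair.

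A list of cartilage genes was likewise added after values were seen. Col2a1, the main collagen of cartilage, was at -0.56 and -3.07 on the FcRg-labelled pair and at -1.14 and -1.21 on the FceRIa-labelled pair, and Ucma, a chondrocyte matrix protein, at -3.02 and -5.32 against -3.21 and -2.88. Here the FcRg-labelled HRF array was the low one and the other 3 lay above it. Of 11 compared, 5 were at least 2-fold lower on the FcRg-labelled pair (Chrdl2, Ucma, Col2a1, Snorc and Comp) and 0 on the other, while Sox9 had responses of 0.28 and 0.37. The basal airway keratins Krt5 and Krt15 had the same order, at -0.10 and -2.29 against -0.82 and -0.76 and at 0.38 and -1.57 against 0.18 and 0.18. The other 7 squamous epithelium genes compared, among them Trp63 (-0.05), had differences between -0.98 (Krt14) and 0.37 (Sprr1a). With normexp the differences of the dim genes Chrdl2, Ucma and Snorc were -1.79, -1.53 and -1.12 in place of -3.16, -2.63 and -1.93. The FcRg-labelled PBS array thus stood apart for brown fat and cardiac genes. For Col2a1, Ucma, Snorc and these keratins it was the FcRg-labelled HRF array. Chrdl2 differed from these cartilage genes, at -2.43 and -5.31 against -4.75 and -4.47, with its FcRg-labelled PBS array as the high one. Whether the amount of such tissue in each sample plays a part in other results was not tested.

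**Figure D5:**
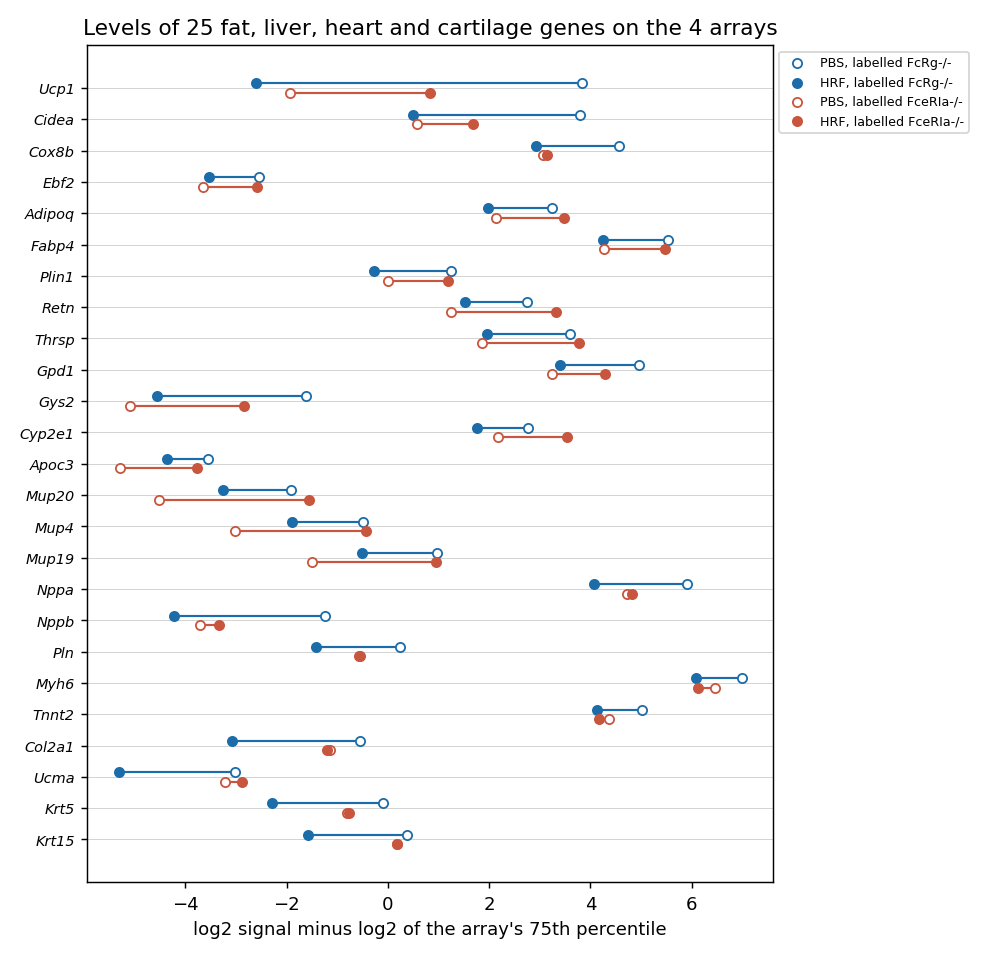
The x axis gives the level of 25 fat, liver-type, cardiac, cartilage and keratin genes as log2 signal relative to the array's 75th percentile, with open circles for PBS, filled circles for HRF, blue for the arrays labelled FcRg-/- and red for those labelled FceRIa-/-. Adipoq moves to the left in blue (3.23 to 1.97) and to the right in red (2.14 to 3.49), while Nppa moves to the left in blue (5.91 to 4.08) with a short red line (4.73 to 4.81).

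A few lymphoid chemokines and antigen-presenting cell genes were past 2-fold on the FceRIa-labelled pair. Cxcl13, which draws B cells to follicles, was at -1.97 and -2.29 on the FcRg-labelled pair and at -1.87 and 0.16 on the FceRIa-labelled pair, and Ccl19, which draws T cells and dendritic cells through Ccr7, at 0.53 and 0.23 against 0.23 and 1.37. The FceRIa-labelled HRF array was the high one in both, and they were the 2 of 12 genes of the lymphoid list past 2-fold. Ccl21a, Ccl21b and Cxcl12 had differences of 0.03, 0.05 and 0.17. Of 16 dendritic cell markers, 4 were past 2-fold on the FceRIa-labelled pair (Ccl17, Ccl22, Cd209e and the maturation marker Cd83) and 1 on the other, while the median difference was -0.00. Marco, a scavenger receptor of alveolar macrophages, had responses of 1.76 on the FceRIa-labelled and 0.13 on the FcRg-labelled pair, against a median difference of 0.41 over 16 alveolar macrophage markers.

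Genes of the resident lung tissue differed little in their medians, though single members differed more. At least 2-fold higher on the FceRIa-labelled pair were 2 endothelial genes and 1 fibroblast gene, and 0 of either list on the FcRg-labelled pair. The lowest differences were -1.33 among type 2 cell genes and -1.15 among endothelial genes, and none in these lists was 1 or more. Median differences were 0.02 for 16 alveolar type 2 cell genes, 0.08 for 12 type 1 cell genes, -0.04 for 16 club cell genes, 0.17 for 19 cilia genes, -0.06 for 16 endothelial genes and 0.01 for 16 fibroblast genes. Sftpc, the surfactant protein that defines type 2 cells, was at 8.09 and 8.34 against 8.05 and 8.30, and Scgb1a1, the club cell secretoglobin, at 8.15 and 8.36 against 8.12 and 8.41. The 4 arrays lay close together for both, so the lung label was borne out by its defining genes. Interferon-stimulated genes of type I had a median difference of 0.21 over 21 genes and class II antigen presentation genes -0.03 over 11, with none past 2-fold on either pair.

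The few shared responses were led by type 2 and epithelial genes. Higher on both pairs were Ccl24, Slc26a4 and Saa3, described above, and Cd209e, a lectin of dendritic cells (2.05 and 2.95), AA467197 (1.57 and 1.34) and the lectin Itln1 (1.74 and 1.05). All 6 were at least 2-fold higher on the WT pair as well. Lower on both were Cyp26b1, which breaks down retinoic acid, and Lrat, which stores retinol as esters. Cyp26b1 was at 4.69 and -0.87 on the FcRg-labelled pair and at 4.78 and 1.85 on the FceRIa-labelled pair. The 2 PBS arrays were alike and both HRF arrays were low, with responses of -5.56 and -2.93. Lrat had -1.73 and -1.14. On the WT pair both genes were higher with HRF (1.32 and 1.47).

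Other genes with a response on 1 pair belonged to none of these lists. Fbp1, an enzyme of gluconeogenesis, was at -0.54 and 2.69 on the FcRg-labelled pair and at -2.47 and -2.33 on the FceRIa-labelled pair, 9.36-fold and 1.10-fold higher. The FcRg-labelled HRF array was the high one, and the PBS arrays also differed. Capn9, a calpain of mucous epithelium, was at -3.53 and -1.83 against -4.20 and -5.06, and Nlrp1b, an inflammasome sensor, at -5.06 and -3.33 against -3.83 and -4.59. Their differences of 2.56 and 2.49 were 1.57 and 1.08 with normexp. Oxct2b, Tmem138 and Kif12 were higher on the FcRg-labelled pair alone (2.48, 1.95 and 1.87). All 3 were dim on the FcRg-labelled PBS array (-6.06, -5.80 and -5.64), and with normexp their differences were 0.91, 0.54 and 0.61. On the FceRIa-labelled pair alone, Mab21l3 was higher (2.74 against -0.13). Lower on the FcRg-labelled pair alone were Igsf21 (-2.13, with a difference of -2.39, or -1.39 with normexp) and Kng1, the precursor of bradykinin (-1.96). The genes lower on the FceRIa-labelled pair alone had smaller responses, from -1.82 for Slc24a2 to -1.25 for Crmp1 among the 8 with the lowest response, and all 8 had their highest level of the 4 arrays on the FceRIa-labelled PBS array. Of those 8, the differences of Slc24a2, Dpp10, Lyrm9, Pak7, Pde6a and Crmp1 fell below 2-fold with normexp (0.92, 0.46, 0.51, 0.66, 0.34 and 0.78). The group includes Cd101, a receptor of myeloid and T cells (-1.52 against -0.19). N6amt1 and the red cell antigen Kel had differences of 2.06 and 1.98, the mitotic genes Kif18b and Sgo2a 2.0 and 1.93, and Add2 was the gene past 2-fold higher on the FcRg-labelled and lower on the FceRIa-labelled pair (1.18 and -1.17). With normexp Kif18b, Sgo2a and Add2 had differences of 0.70, 0.75 and 0.76.

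Genes that were not well above background on 1 or more of the 4 arrays give only a bound on the difference. Bounds on a lower response of the FcRg-labelled pair were for Cd163, the haemoglobin scavenger receptor of macrophages (at least 17.8-fold lower), Mup3 (15.3), Serpinb5 (7.36), the kinetochore gene Cenpf (7.18) and Cstdc6 (7.08). Cd163 was at -2.68 and -6.92 on the FcRg-labelled pair, not well above background with HRF, and at -6.12 and -5.81 on the FceRIa-labelled pair. The FcRg-labelled PBS array was the high one. For a higher response of the FcRg-labelled pair the bounds were at least 13.5-fold for Clspn, a replication checkpoint protein, 9.18-fold for Olfr401, 6.10-fold for Ces2f, 5.74-fold for Myh3, 5.47-fold for Awat1 and 4.62-fold for Vmn1r197.

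The 2-fold calls differed in where the gap arose. Of the 201 genes with a positive difference, 64 were at least 2-fold higher on the FcRg-labelled than on the FceRIa-labelled HRF array and 48 at least 2-fold lower on the PBS array, with 1 gene in both sets. Of the 326 with a negative difference, the counts were 132 between the HRF arrays and 96 between the PBS arrays, with 34 in both. Of the positive calls 96 were bright genes, and of the negative calls 192. Another compared probe was present for 25 of the positive and 43 of the negative calls, and it had the opposite sign for 2 and 1.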

How the data were processed

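Single-colour Agilent arrays (Cy3) of whole lung RNA were used, 1 for each of 6 groups, all on 1 slide. Per the file headers, the deposited intensity values are processed signals of Feature Extraction 10.7.3.1, already background-corrected. The deposited value table holds the authors' log2-like values, rounded to 1 decimal, with array medians of 0 (0.1 for WT PBS); its scale and centring are not given in the sources used here, and its responses had correlations of 0.991 and 0.993 with those computed from the scanner values.

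Control and outlier spots were left out, spots of a probe were averaged, and log2 signal minus the array's log2 75th percentile was taken. Of 55681 probes, 26056 were named through RefSeq accessions (GRCm38.p6 table), giving 19752 genes; of several probes the one with the highest mean was used. A response of 2-fold, and under 0.5 (log2) on the other pair, set the classes; bright means a mean level of at least -3 over the 4 arrays. With 1 array in a group no test was made, and precision is limited by the few arrays. The text names the targeted genes and Tpt1, the 15 highest and lowest differences, the 8 leading genes of each class, up to 6 bounds each way, members of the lists that met the rule for 1 pair and up to 6 of any other list; other genes were chosen after their values were seen. A few genes that the rule names are not reported here. A probe not well above background gives a bound: the bright array's level against the higher of the lowest signal well above background and the probe's own level. Members and lists were chosen with earlier results of these data known; the cartilage and major urinary protein lists were added after values were seen. Lists overlap in single genes, among them Ear1, Ear2, Siglecf, Ccr3, Ccl17, Ccl22, Egr2, Cidec and Pparg. Clec4e, Ltf, Alox15, Mrc1, Chil3, Itgax, Il33, Il1rl1 and Il5ra are shared between lists too. Alternatives were median and quantile scaling, normexp (offset 50) with quantile normalization, the value table, the mean of probes, bright genes, genes well above background on any of the 4 arrays, and 1.5-fold and 3-fold thresholds. Scripts used Python 3.11.15, numpy 2.4.6, pandas 2.3.3, R 4.3.3 and limma 3.58.1. Only the computing and counting of differences were checked on simulated data, with planted differences well past the threshold. Reading, scaling and background filtering were not checked in this way. Promoter windows came from RefSeq.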

Additional observations from a re-analysis of the deposited data

Results flagged for a closer look

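In 34 of the 15692 genes compared the pairs moved in opposite directions by at least 2-fold each. Of these, 10 are among the 15 highest or 15 lowest differences. None of the differences was tested, since each group has 1 array. The differences of responses (FcRg-labelled minus FceRIa-labelled) were -9.20 for Ucp1, -5.20 for Gys2, -4.41 for Cidea, -4.02 for Cxcl9 and 2.35 for Add2. Mup20 had -4.29, Mup4 -4.01, Mup5 -3.94 and Mup19 -3.93, and 2010003K11Rik, a gene known by its clone name, had -4.19. Over the 24 white and general fat genes the median responses were also opposite, with a median difference of -1.52, which was not tested either.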

How the results depend on the processing

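No paired analysis was possible because each group has 1 array, and for the same reason no array could be left out. Normexp with quantile normalization, bright genes (mean level of at least -3), genes measured on any of the 4 arrays, and thresholds of 1.5-fold and 3-fold moved the counts by over 1.5 times. Positive differences numbered 96 for bright genes, 68 with normexp, 655 at 1.5-fold, 44 at 3-fold and 429 with any of the 4 arrays. Negative differences numbered 192, 201, 765, 150 and 580 in that order. Genes higher on the FcRg-labelled pair alone numbered 22, 17, 244, 15 and 119. Genes lower on it alone numbered 48, 46, 327 and 22 for the first 4 settings. Genes higher on the FceRIa-labelled pair alone numbered 52 for bright genes, 298 at 1.5-fold, 36 at 3-fold and 170 with any of the 4 arrays. Those lower on it alone numbered 10, 7, 167, 2 and 99. Scaling on the median shifted the median difference over all genes to -0.08 and gave 163 positive and 385 negative calls, a positive share of 29.7%; quantile normalization gave 32.3%.

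Of the lists that met the rule for 1 pair, the IL-1 family changed sign with normexp (-0.024). Brown fat had -1.04 with the mean of probes, white fat -1.82 over bright genes, and liver genes -0.99 over bright genes, -1.01 with normexp and -1.04 with any of the 4 arrays. Other medians that changed sign lay near 0: class II genes 0.011 (quantile), type 1 cells -0.0090, type 2 cells -0.066, fibroblasts -0.076 and type 2 cytokines -0.050 (all median scaling), aryl hydrocarbon receptor targets 0.0090 (mean of probes), endothelium 0.018 and neutrophil markers 0.017 (normexp). Dendritic cell markers had 0.015 over bright genes, 0.050 in the value table and 0.015 with any of the 4 arrays, and metalloproteinases -0.048 over bright genes, -0.027 with normexp, -0.011 with quantile and -0.058 with median scaling. Among single named genes, 375 values under the alternatives stayed within the spread over genes (0.21), 46 moved beyond it, 45 of them with normexp, and 0 changed sign. The cause of these changes was not tested. Single arrays, an unknown number of mice and 2 targeted genes that did not follow their labels limit every comparison.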

Other observations

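Probes without a gene name had the opposite balance of differences. Of 14954 unnamed probes well above background on all 4 arrays, 415 had a difference of responses of at least 1 and 171 of -1 or less. The 15692 named genes compared, with 1 probe each, had 201 and 326. Unnamed probes were counted singly and not by gene, and their brightness was not compared with that of named genes. These probes are unnamed here and were not examined further.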
